A study of Mus musculus with 2 samples.

Results

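The Slc25 genes encode the mitochondrial carriers, and 47 of the 23961 gene symbols in the deposited tables carry a name that starts with Slc25a. All 47 were taken by that name alone, and each had 1 row. Of these, 36 reached 1 FPKM in one library or both, and 11 stayed below that level in both. FPKM sets the fragments of a gene against the length of its transcript and the mapped fragments of its library, so levels of different genes can be compared per length. Genes that reached 1 FPKM in either library are called measured here.

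The data are 2 RNA-seq libraries of bone marrow cells sorted as haematopoietic stem cells from untreated mice of the C57BL/6 strain. One library is labelled Per2wt (wild-type for the clock repressor gene Per2) and the other Per2def (Per2-deficient), and both groups of mice were kept on a light and dark cycle. The sources used here do not give the allele, the sort markers, the age and number of mice or the hour of collection. With 1 library per genotype no difference has a replicate check or a test, so each one is between these libraries and not between genotypes. Per2 itself went against what a loss of its RNA would give, with 1.96 FPKM under the label Per2wt and 6.16 FPKM under the label Per2def, so every direction here is between libraries as labelled. The files give no read totals. Among 3232 genes of low level the most common ratio of FPKM would fit a Per2def library 1.24 times as deep, and the absolute depth is unknown. Of 10 stem cell markers 7 reached 1 FPKM, among them Kit at 42.7 and 43.6 FPKM in Per2wt and Per2def and Cd34 at 90.5 and 83.9 FPKM, whereas Slamf1, Fgd5 and Hoxb5 did not, so the cells may include progenitors.

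Mitochondrial carriers are membrane proteins, nearly all of the inner mitochondrial membrane, built from a repeated pair of membrane-spanning helices. They exchange nucleotides, phosphate, organic acids, amino acids, cofactors and iron between the cytosol and the matrix, and a membrane-embedded translocase inserts newly made carriers into the membrane. Red cell precursors lean on several of them, because haem is made partly in the matrix: Slc25a37 (mitoferrin 1) brings in iron, Slc25a38 brings in glycine for the first step of haem synthesis, and Slc25a39 brings in glutathione. The adenine nucleotide exchangers, among them Slc25a4 and Slc25a5, trade ATP made in the matrix for cytosolic ADP.

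The carriers' RNA was much alike in the libraries, with small differences in single members. Of the 36 measured carriers, 26 were higher and 10 lower in Per2def, with a median difference of 0.08 on the log2(FPKM + 1) scale, Per2def minus Per2wt. That scale understates the change of low genes. Over all 11121 measured genes, 62% were higher and 38% lower, with a median of 0.05. Among 148 measured solute carrier genes of other families 103 were higher, with a median of 0.06, so the Slc25 family lay close both to its wider class and to all genes.

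On that scale no measured carrier differed by 2-fold. None of the 36 was 2-fold higher, against 0.266% of the 10147 measured genes other than small and predicted RNAs, and none was 2-fold lower, against 0.168%. Nor was any 1.5-fold higher or lower on that scale, where 1.32% and 0.749% of those genes were. As plain ratios of FPKM, Slc25a21 (1.59) and Slc25a53 (1.63) were above 1.5, and both pass 1.5-fold with a pseudocount of 0.1 FPKM. At a log2 difference of 0.32 or more, 3 carriers were higher (Slc25a21, Slc25a38 and Slc25a53), which is 8.33% of the 36 against 6.73% of those genes, and none was lower by as much, against 3.35%. Slc25a53 reached 1 FPKM only in Per2def, at 0.741 against 1.21 FPKM (0.34), and the nearest member outside that level was Slc25a43, at 0.818 and 0.506 FPKM. Over the 35 carriers at 1 FPKM or more in both libraries 25 were higher, with a median of 0.08, beside 61.6% of all 10460 genes at that level in both. Of these 35 only Slc25a21 and Slc25a38 (5.71%) had a log2 difference of 0.32 or more. Of those 10460 genes, which include small and predicted RNAs, 6.32% did, so the share of such carriers was near the background.

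**Figure D1:**
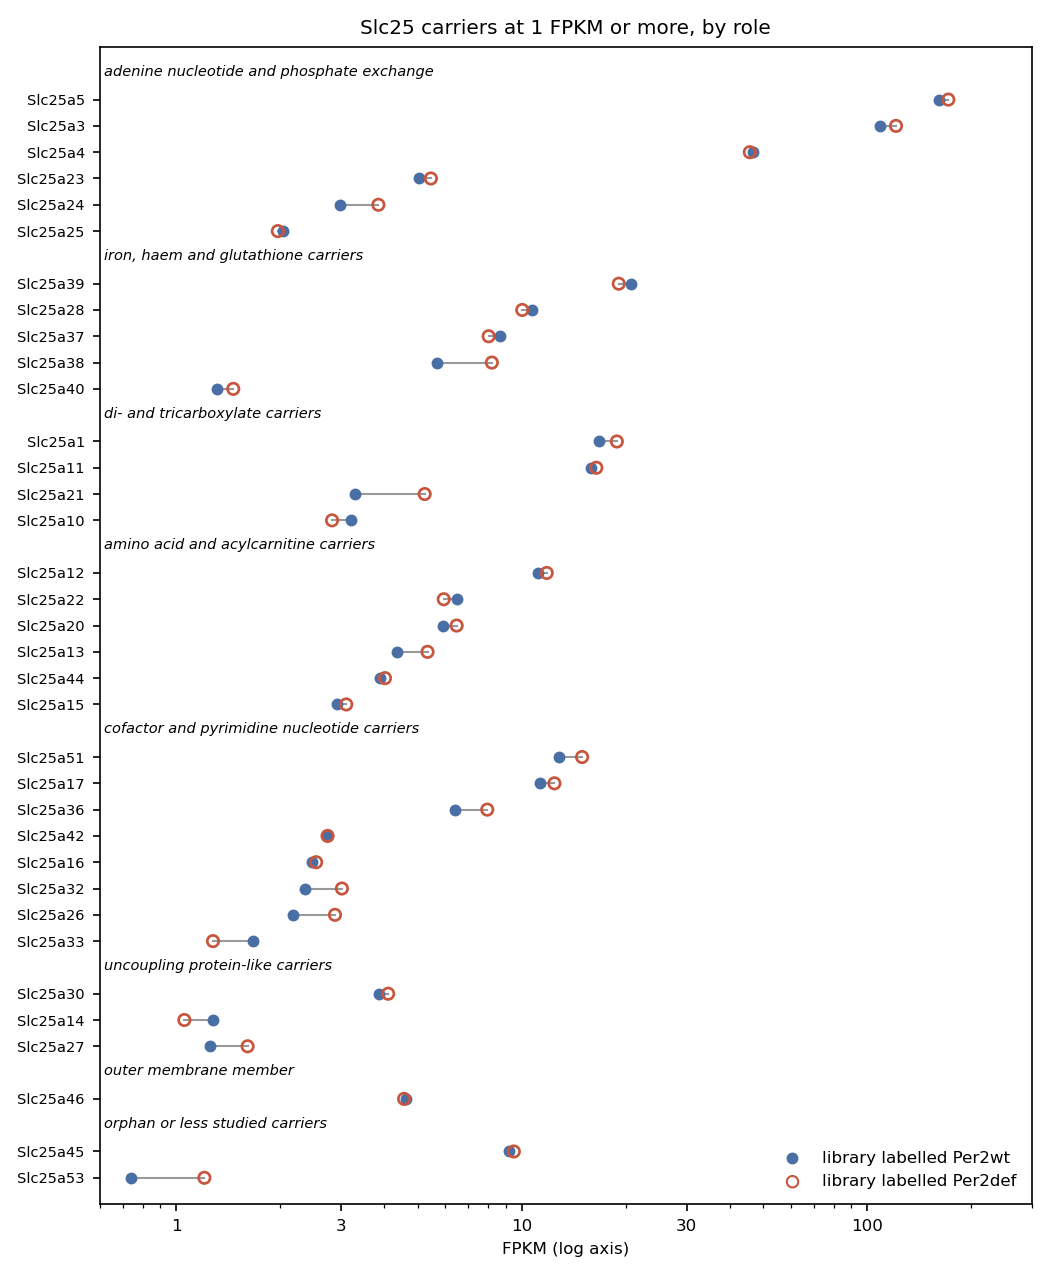
Levels of 35 of the measured carriers, in FPKM on a log axis, grouped by role; filled points are the library labelled Per2wt and open points the library labelled Per2def. The levels span from about 1 FPKM to the 172 FPKM of Slc25a5, and most pairs of points nearly touch.

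The bases just before the RefSeq start of 3 carriers are shown so that these regions can be compared. Slc25a38 was the erythroid carrier that was higher in Per2def, Slc25a39 was slightly lower, and Slc25a5 was the most abundant carrier. Each runs 5′ to 3′ on the gene's strand and ends where an annotated exon or the RefSeq start begins. The stretches are chr9:120110132-120110373 on the plus strand for Slc25a38, chr11:102407545-102407767 on the minus strand for Slc25a39 and chrX:36795347-36795596 on the plus strand for Slc25a5, from RefSeq on GRCm38.p6. One GENCODE transcript of Slc25a39 starts further upstream than RefSeq does, so the stretch shown lies within the GENCODE bounds of that gene, in an intron of that transcript. Capitals mark GATA words (GATA with A or T before it and A or G after it), CCAAT and GGGCGG, each on either strand; no word overlaps another here.
Slc25a38: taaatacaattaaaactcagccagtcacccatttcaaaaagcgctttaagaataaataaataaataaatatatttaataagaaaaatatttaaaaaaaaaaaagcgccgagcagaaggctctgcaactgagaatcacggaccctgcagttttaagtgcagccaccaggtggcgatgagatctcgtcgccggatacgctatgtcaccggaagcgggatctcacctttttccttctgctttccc
Slc25a39: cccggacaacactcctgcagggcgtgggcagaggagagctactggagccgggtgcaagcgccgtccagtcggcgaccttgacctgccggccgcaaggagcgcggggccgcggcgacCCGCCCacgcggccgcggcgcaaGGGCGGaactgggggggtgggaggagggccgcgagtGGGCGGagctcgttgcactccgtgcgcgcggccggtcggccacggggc
Slc25a5: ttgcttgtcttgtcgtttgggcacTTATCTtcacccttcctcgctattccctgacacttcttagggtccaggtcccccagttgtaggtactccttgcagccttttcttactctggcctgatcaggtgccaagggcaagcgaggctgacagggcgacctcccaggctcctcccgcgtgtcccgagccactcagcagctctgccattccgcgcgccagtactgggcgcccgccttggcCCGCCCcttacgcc
The stretch of Slc25a38 held none of these motifs and was 40.1% G and C. That of Slc25a39 held GGGCGG 3 times and was 77.1% G and C, and that of Slc25a5 held 1 GATA word and 1 GGGCGG at 61.6% G and C. In windows of 250 bases before the start, a GATA word occurred in 26.5% of 32851 RefSeq promoters and in 6 of the 46 promoters found for 36 of all 47 carriers, measured or not. Slc25a37 is among the 11 carriers with no promoter found. CCAAT occurred in 33.9% and in 21 of the 46, and GGGCGG in 32.7% and in 32 of the 46. The median share of G and C was 52.4% over all promoters and 57.4% over those of the carriers. A match of letters describes the window and says nothing of a factor bound there.

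The exchangers of adenine nucleotides and phosphate were by far the most abundant carriers and differed little. Slc25a5, the main exchanger of dividing cells (ENSMUSG00000016319.3, chromosome X, 36795651 to 36798807, GRCm38), was at 162 FPKM in Per2wt against 172 FPKM in Per2def, a log2 difference of 0.09. Slc25a4, the form typical of heart and muscle (ENSMUSG00000031633.4, chromosome 8, 46206797 to 46211284), stood at 46.6 and 45.7 FPKM, a difference of −0.03. Both differences were inside the middle 95% of genes of like level, and Slc25a5 was the higher form in each library, 3.47 times Slc25a4 in Per2wt and 3.76 times in Per2def. The direction of the pair's median difference (0.03) depended on scaling, and it was −0.01 after scaling by the median of ratios. Reads of Slc25a5 may be shared, since its coding sequence matched 7 annotated pseudogenes at 90% identity or more over at least 300 bases, none of which has a row of its own in the tables. Slc25a3, the phosphate carrier that supplies ATP synthase (ENSMUSG00000061904.12, chromosome 10, 91116574 to 91124059), stood at 109 and 121 FPKM (0.16), a difference that 3.76% of the genes at 100 FPKM or more exceeded.

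Slc25a3, Slc25a4 and Slc25a5 together made up 61.4% of the summed FPKM of the family in Per2wt and 61.1% in Per2def. That sum was 517 FPKM in Per2wt against 554 FPKM in Per2def, or 0.262% and 0.280% of all FPKM outside small and predicted RNAs. The calcium-regulated ATP-magnesium carriers were far lower: Slc25a23 stood at 5.05 and 5.46 FPKM (0.10) and Slc25a25 at 2.04 and 1.97 FPKM (−0.04). Slc25a24 of the same group was at 2.97 and 3.85 FPKM, and its difference of 0.29 was inside the middle 95% of genes of like level. Slc25a31, the exchanger of germ cells, and Slc25a41 were listed at 0 in both libraries.

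The iron, haem and glutathione carriers split, with Slc25a38 higher in Per2def and the others close to level. Slc25a38 (ENSMUSG00000032519.11, chromosome 9, 120110374 to 120124504) was at 5.69 FPKM in Per2wt against 8.20 FPKM in Per2def, a ratio of 1.44 and a log2 difference of 0.46. It lay above the middle 95% of the 4375 genes with a mean of 5 to 20 FPKM, which ran from −0.33 to 0.42, and 1.83% of those genes had a higher difference. Slc25a37 (ENSMUSG00000034248.7, chromosome 14, 69241848 to 69285112) was lower by a small amount, at 8.68 and 8.02 FPKM (−0.10). Slc25a39 (ENSMUSG00000018677.9, chromosome 11, 102402985 to 102407946) was likewise slightly lower, at 20.7 and 19.1 FPKM (−0.11). Exons of Slc25a37 overlap those of 2 predicted genes on the other strand that have no row of their own. Both carriers were well inside the range of genes of like level. Each of the 3 other scalings lowered Per2def, so a negative sign could not change under them. The erythroid carriers therefore did not go one way, and Slc25a38 is the member that stands out among them.

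The relatives of these carriers that are not tied to red cells gave little difference. Slc25a28 (mitoferrin 2, ENSMUSG00000040414.8, chromosome 19, 43663801 to 43674881), the form that most cells use for iron, was at 10.7 and 10.04 FPKM (−0.08), so that Slc25a37 made up 44.8% of the summed mitoferrin RNA in Per2wt and 44.4% in Per2def. Slc25a40, the close relative of Slc25a39, was at 1.31 and 1.46 FPKM (0.09). Slc25a39 was 15.8 times Slc25a40 in Per2wt and 13.1 times in Per2def.

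Set beside the enzymes of haem synthesis, Slc25a38 went the way of most enzymes and Slc25a37 did not. Of the 9 enzymes of the pathway 8 were higher in Per2def, with a median of 0.29. Over all measured genes 62% were higher, with a median of 0.05. Alad, the cytosolic enzyme of the second step, was at 4.88 and 7.06 FPKM, a difference of 0.46 as in Slc25a38. Fech, which inserts iron into the finished ring in the matrix, was at 6.94 and 8.81 FPKM (0.31), and Cpox (0.31) and Ppox (0.29) were close to it. The exception was Alas2, the erythroid form of the first enzyme that uses the glycine that Slc25a38 carries, at 1.46 and 0.792 FPKM (−0.46). Alas2 reached 1 FPKM only in Per2wt, so its direction followed from the floor. The general form Alas1 was at 7.35 and 7.74 FPKM (0.07). In the wider list of haem synthesis and mitochondrial iron use 15 of 17 measured genes were higher, with a median of 0.22, led by Fam210b at 1.52 and 2.63 FPKM (0.52).

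**Figure D2:**
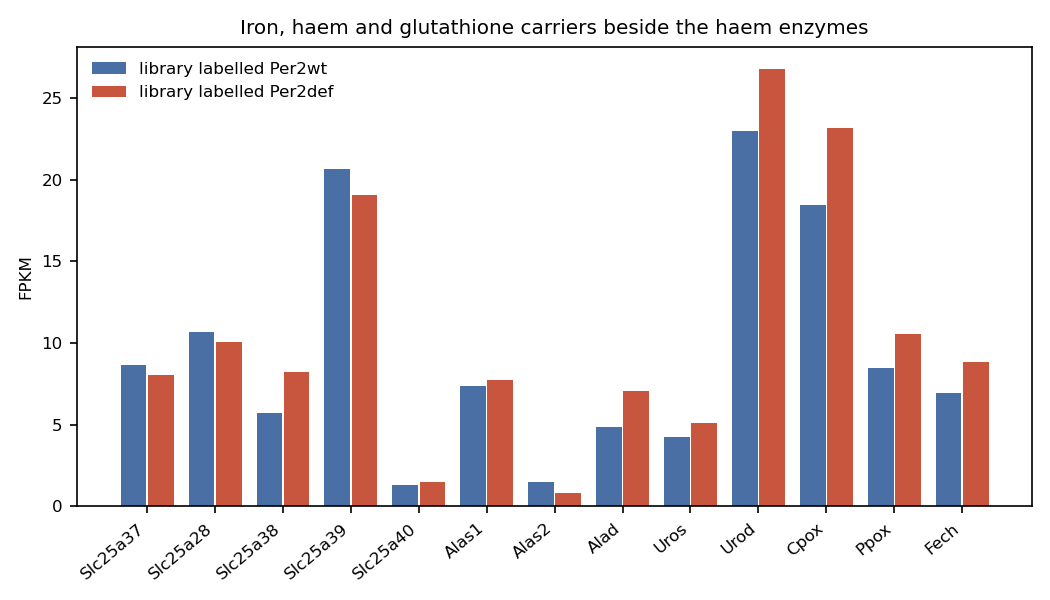
FPKM of the 5 iron, haem and glutathione carriers and of 8 enzymes of haem synthesis in each library; bars start at 0 and have no error bars because each genotype has 1 library. Slc25a38 stands at 5.69 and 8.20 FPKM, close to Alad at 4.88 and 7.06 FPKM, whereas Slc25a37, Slc25a28 and Slc25a39 are slightly lower in Per2def, as is Alas2.

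Markers of several blood lineages also differed between these libraries, and in bulk RNA a change in the number of cells of a type cannot be told apart from a change per cell. Of all measured genes 62% were higher in Per2def. Of 18 erythroid markers 17 were measured and 11 were higher, and their sum was 851 FPKM in Per2wt against 818 FPKM in Per2def. None was listed at exactly 0 in either library, but the globin Hbb-bs was near it in Per2def. Without globins 11 of 12 were higher, with a sum of 414 and 604 FPKM. Among them were the erythropoietin receptor gene Epor at 7.82 and 11.9 FPKM (0.54) and the erythroid factor gene Klf1 at 16.2 and 21.8 FPKM (0.41). The lower marker was Alas2, which reached 1 FPKM only in Per2wt. All 5 globin rows were lower, with a sum of 437 and 214 FPKM. The widest differences were in Hbb-bs, at 29.25 and 0.00297 FPKM, and Hba-a2, at 67.8 and 9.50 FPKM. Hbb-bs reached 1 FPKM only in Per2wt, so its direction followed from the floor. Near copies were sought for the carriers only, so how far the globin rows share reads is unknown here. Single globin rows may therefore not be separate measures. Neutrophil markers were higher in 12 of 13 measured cases of 14, with a sum of 531 and 1014 FPKM. Retnlg alone was lower, at 2.16 FPKM in Per2wt and 0 in Per2def. It reached 1 FPKM only in Per2wt, so its direction followed from the floor. Of 6 T cell markers all 4 measured ones were higher, with a median of 0.66 and a sum of 7.82 and 13.8 FPKM. One of these 4, Cd3g at 0.266 and 1.41 FPKM, reached 1 FPKM only in Per2def, so its direction followed from the floor. Of 7 monocyte and macrophage markers 4 of 5 measured ones were higher, with Ly6c2 at 6.60 and 15.0 FPKM (1.08) and a sum of 55.8 and 70.6 FPKM. No T cell or monocyte marker of the lists was at 0 in either library. Other lists differed little or went the other way. Megakaryocyte markers were higher in 3 of 5 measured cases of 7, with a median of 0.01 and a sum of 36.1 and 34.7 FPKM. Of 7 B lineage markers only Cd79b was measured, at 6.00 and 5.29 FPKM (−0.15). Stem cell markers were lower in 5 of 7 measured cases, with a median of −0.04. The 3 below 1 FPKM in both libraries were all higher in Per2def. These were Slamf1 at 0.245 and 0.522 FPKM, Fgd5 at 0.964 and 0.977 FPKM and Hoxb5 at 0.154 and 0.373 FPKM. The stem cell list as a whole therefore did not go one way. The part of these cell types in the differences of the carriers was not tested.

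**Figure D3:**
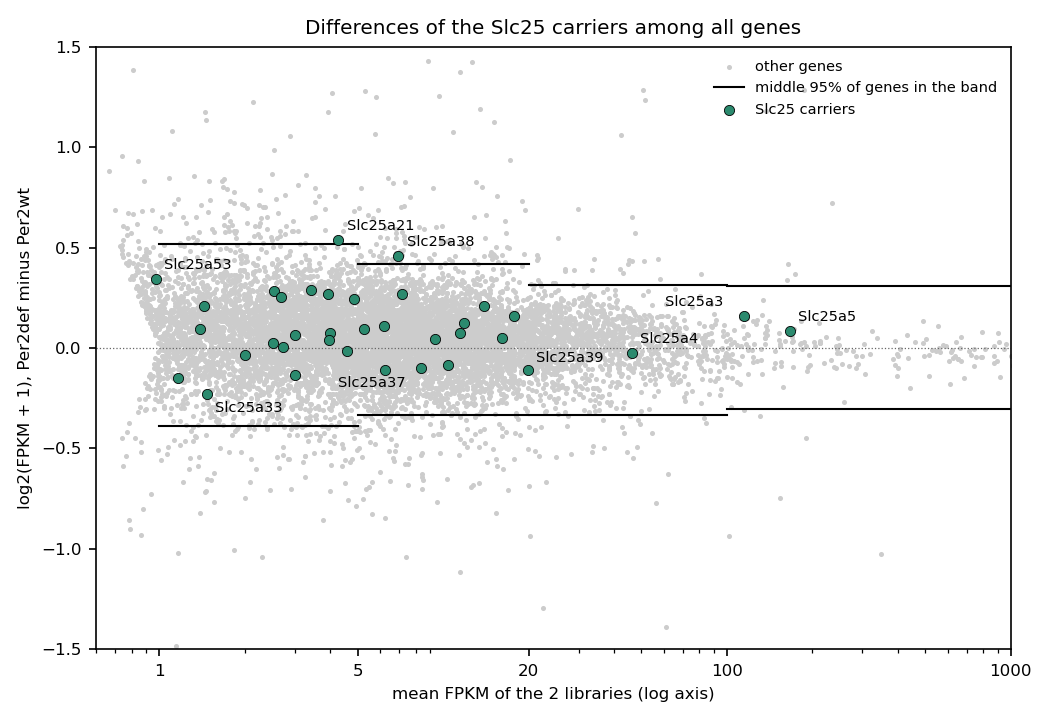
Difference in log2(FPKM + 1), Per2def minus Per2wt, against mean FPKM of the libraries on a log axis, for the 36 carriers (green) and other genes without small and predicted RNAs (grey); black lines mark the middle 95% of genes in each band of level, and 41 genes fall beyond the axes. Slc25a21 and Slc25a38 are the carriers above these lines and none lies below them.

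Among the carriers of di- and tricarboxylates Slc25a21 stood out, with the highest log2(FPKM + 1) difference of all 47 carriers. As a plain ratio Slc25a53 was higher, as were Slc25a2, Slc25a29 and Slc25a48, which lay below 1 FPKM in both libraries. This carrier of 2-oxoadipate, a product of lysine and tryptophan breakdown (ENSMUSG00000035472.14, chromosome 12, 56712634 to 57197472), was at 3.30 FPKM in Per2wt against 5.24 FPKM in Per2def, a ratio of 1.59 and a log2 difference of 0.54. It lay just above the middle 95% of the 4068 genes with a mean of 1 to 5 FPKM, which ended at 0.52, and 2.31% of those genes had a higher difference. The gene spans 484839 bases, the longest of the family, and its exons overlap those of Pax9 on the other strand, and the strand setting of the counting is unknown. Pax9 itself was listed at 0.0367 FPKM in Per2wt against 0.118 FPKM in Per2def, far below Slc25a21. The citrate carrier Slc25a1, which feeds fatty acid synthesis, was at 16.7 and 18.9 FPKM (0.16), and the 2-oxoglutarate carrier Slc25a11 of the malate-aspartate shuttle was at 15.9 and 16.5 FPKM (0.05). The dicarboxylate carrier Slc25a10 was slightly lower, at 3.20 and 2.83 FPKM (−0.13). Only Slc25a21 of these 4 carriers was outside the range of genes of like level.

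Carriers of amino acids and acylcarnitine differed by less. The aspartate-glutamate carriers of the same shuttle, Slc25a12 (aralar) and Slc25a13 (citrin), stood at 11.2 and 11.8 FPKM (0.08) and at 4.36 and 5.34 FPKM (0.24). Slc25a13 (ENSMUSG00000015112.15, chromosome 6, 6041218 to 6217173) had the highest difference of the 6 measured members of this group. Slc25a12 remained the main form, at 71.9% of the summed RNA of this pair in Per2wt and 68.9% in Per2def. The glutamate carrier Slc25a22 (ENSMUSG00000019082.18, chromosome 7, 141429744 to 141437892) was lower, at 6.51 and 5.95 FPKM (−0.11), while its relative Slc25a18 was below 1 FPKM in both. Slc25a20, which brings acylcarnitines in for fat oxidation, was at 5.93 and 6.48 FPKM (0.11), the ornithine carrier Slc25a15 at 2.92 and 3.11 FPKM (0.07) and the branched-chain amino acid carrier Slc25a44 at 3.88 and 4.02 FPKM (0.04). All 6 measured carriers of this group were inside the middle 95% of genes of like level.

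Carriers of cofactors and pyrimidine nucleotides were higher in 8 of 9 cases, beside 62% of all measured genes. Their median of 0.21, beside 0.05 over all measured genes, was the highest of the role groups with at least 3 measured members. Slc25a51 (ENSMUSG00000045973.18, chromosome 4, 45395923 to 45408766), which brings NAD into the matrix, was the most abundant of them, at 12.8 and 15.0 FPKM (0.21). Slc25a36, a pyrimidine nucleotide carrier (ENSMUSG00000032449.13, chromosome 9, 97074961 to 97111157), was at 6.42 and 7.95 FPKM (0.27), whereas its relative Slc25a33 had the lowest difference of the measured family, at 1.67 and 1.28 FPKM (−0.23). Slc25a36 was thus 3.85 times Slc25a33 in Per2wt and 6.22 times in Per2def. Near these stood the S-adenosylmethionine carrier Slc25a26, at 2.18 and 2.88 FPKM (0.29), and the folate carrier Slc25a32, at 2.37 and 3.02 FPKM (0.26). The peroxisomal carrier Slc25a17 was at 11.3 and 12.4 FPKM (0.13). Slc25a16 was at 2.48 and 2.54 FPKM (0.03), and the coenzyme A carrier Slc25a42, at 2.73 and 2.74 FPKM (0.01), turned to −0.02 after scaling by the median of ratios. None of the 9 was outside the middle 95% of genes of like level.

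The other members were mostly low, apart from Slc25a45. Of the carriers related to uncoupling proteins Slc25a30 was at 3.86 and 4.11 FPKM (0.07), Slc25a27 at 1.254 and 1.61 FPKM (0.21) and Slc25a14 at 1.28 and 1.06 FPKM (−0.15). Slc25a46, which sits in the outer membrane and acts in mitochondrial dynamics, was close to level at 4.62 and 4.57 FPKM (−0.01), as was Slc25a45 at 9.17 and 9.49 FPKM (0.05). Among the 11 members below 1 FPKM in both libraries Slc25a31, Slc25a41 and Slc25a54 were listed at 0 in both, and the other 8 (Slc25a2, Slc25a18, Slc25a29, Slc25a34, Slc25a35, Slc25a43, Slc25a47 and Slc25a48) ranged from 0.0336 to 0.818 FPKM. Such low values carry the most counting error, and no interval can be set on them without the depth. Of the 8, all but Slc25a43 were higher in Per2def. The share over all genes below 1 FPKM was not computed, so this count has no background and gives no direction.

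The order of levels was nearly the same in both libraries. Ranked by FPKM, the first 11 carriers were the same in the same order in each, namely Slc25a5, Slc25a3, Slc25a4, Slc25a39, Slc25a1, Slc25a11, Slc25a51, Slc25a17, Slc25a12, Slc25a28 and Slc25a45. A total of 10 carriers stood at 10 FPKM or more in each library. With 1 library per genotype the spread of any level is unknown, so neighbours in this order, such as Slc25a1 and Slc25a11, cannot be ranked with confidence.

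Relatives of the family under other names, the import machinery and other mitochondrial transporters were also close to level. Ucp2, a carrier of the uncoupling protein branch that is abundant in blood cells, was at 41.0 and 44.8 FPKM (0.12), Ucp1 was listed at 0 in both, and Ucp3 at 0 in Per2wt against 0.0312 FPKM in Per2def. Mtch1 and Mtch2, outer membrane relatives of the carriers, were at 27.1 and 27.1 FPKM (0.00) and at 11.7 and 11.2 FPKM (−0.06). In the machinery that imports carriers 10 of 17 genes were higher, beside 62% of all measured genes. Their median was 0.08, with a range from −0.22 (Tomm7) to 0.20 (Timm8a1). Timm22, the channel that inserts carriers, was at 3.43 and 3.99 FPKM (0.17), and Timm10, a chaperone that escorts them, at 14.0 and 16.2 FPKM (0.20). Of 20 other measured transporters 13 were higher, with a median of 0.08, led by the ABC transporter genes Abcb6, at 2.51 and 3.60 FPKM (0.39), and Abcb10, a partner of mitoferrin 1, at 4.70 and 5.93 FPKM (0.28). The calcium uniporter gene Mcu was at 2.48 and 3.27 FPKM (0.30), so the widest differences of that list lay with these 3 genes.

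**Figure D4:**
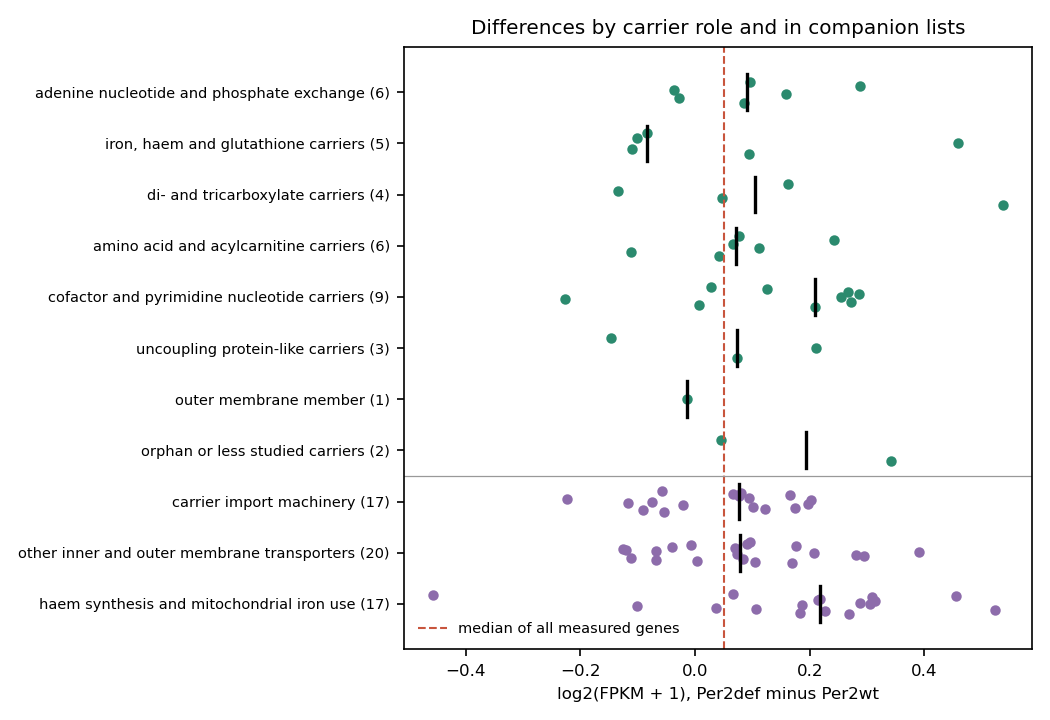
Differences in log2(FPKM + 1), Per2def minus Per2wt, of the measured members of each carrier role (green) and of 3 companion lists (purple), with the number of genes in brackets; black bars are list medians and the dashed line is the median of all measured genes, 0.05. The iron, haem and glutathione carriers have a median below 0 with Slc25a38 far to the right, and the haem synthesis list has a median of 0.22.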

How the data were processed

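The authors deposited 1 table per library with FPKM per gene, which Cufflinks computed, per the file headers. Per the submitters' processing notes, the tools and builds include CASAVA 1.8, TopHat, Bowtie2, GRCm38 and mm10. Per the labels' protocols, libraries were made from poly(A) RNA with a kit that marks strand; the annotation and the strand setting of the counting are unknown here. Groups follow the genotype label. From 24487 rows, 9 without an estimate and 27 with symbols turned into dates were left out, and rows sharing a symbol were summed. Differences are log2(FPKM + 1), Per2def minus Per2wt, over genes that reach 1 FPKM in either library. Shares of genes past a fold leave out small and predicted RNAs, a choice made after the values were seen. The share over the 10460 genes at 1 FPKM or more in both libraries keeps them. No test was run. The members, lists and thresholds were chosen with earlier results of these data known. Every measured carrier but 1 is named, with full values for Slc25a4, Slc25a5, Slc25a37, Slc25a38 and Slc25a39, the most abundant carriers and those of widest difference, and the widest differences of each companion list. A total of 3 genes that this takes in, 1 of them a carrier, are not reported here singly but stay in the counts. Of 179 listed symbols 175 were found, 2 of which had older names, taken from RefSeq. Positions are from GENCODE M21 (GRCm38). Near copies were sought with blastn 2.17.0+, and tables were made with pandas 2.3.3. The procedure was tested on simulated data with planted changes wider than any difference of a measured carrier. That test therefore does not cover differences as small as those of the carriers. Alternatives were 3 other scalings, pseudocounts of 0.1 and 0.5 FPKM, no floor, a floor of 5 FPKM, other fold thresholds, the highest row per symbol, the mean, and the relatives added.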

Additional observations from a re-analysis of the deposited data

How the results depend on the processing

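With the alternatives taken singly no carrier passed 2-fold in either direction. In combinations chosen after seeing the data, a pseudocount of 0.1 FPKM with no floor put 1 carrier past 2-fold, Slc25a2 at 0.114 and 0.399 FPKM, and the same pseudocount with a 1.5-fold threshold put 2 past it, Slc25a21 and Slc25a53, all higher in Per2def. With a floor of 5 FPKM 14 of 19 carriers were higher, fewer because fewer were counted. The share over all genes at that floor was not computed. With a lower threshold, a log2 difference of 0.32, 3 carriers passed as higher and none as lower. The median difference stayed between 0.04 (median of ratios) and 0.10 (mean over members). The other 60 of 64 values of the main results stayed within 0.1 on the log2 scale or 1.5 times in a count. That limit of 0.1 is wider than the median difference of 0.08. The highest row per symbol could change none of these values, and the scalings could not move a difference by 0.1. Of 216 values of single carriers 210 stayed within 0.1, but only the smaller pseudocounts could move a value that far. The highest row is the only row of each carrier, and the 3 scalings multiplied Per2def by 0.974, 0.995 and 0.999. The other 6 values came from those pseudocounts, which widened Slc25a21 to 0.65 and Slc25a53 to 0.64 at 0.1 FPKM. The median of Slc25a4 and Slc25a5 was −0.01 after scaling by the median of ratios, against 0.03. That scaling moved the median of all genes by −0.03. No paired analysis was possible because each genotype has 1 library. Depth is unknown, so low values carry an error that cannot be stated.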

Other observations

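The carrier genes are spread over 19 chromosomes, and 4 pairs of them lie within 100000 bases of each other. Slc25a29, a carrier of basic amino acids, and Slc25a47 lie 162 bases apart on chromosome 12 on opposite strands, and both were below 1 FPKM, at 0.272 and 0.498 FPKM and at 0.411 and 0.611 FPKM in Per2wt and Per2def. Slc25a43 and Slc25a5 lie 18448 bases apart on chromosome X and differed widely in level, since Slc25a43 was at 0.818 and 0.506 FPKM beside 162 and 172 FPKM. In the other 2 pairs, Slc25a41 with Slc25a23 on chromosome 17 and Slc25a54 with Slc25a24 on chromosome 3, the first gene was listed at 0 in both libraries and its neighbour was not. Exons of 14 carriers overlap those of another annotated gene, and Slc25a36, Slc25a40 and Slc25a51 each have 1 annotated pseudogene as a near copy, so the values of these carriers may hold shared reads.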
